A study of Mus musculus with 4 samples.

Results

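The 8 genes described here encode killer lectin-like receptors, cell surface proteins of killer lymphocytes with a C-type lectin-like outer domain. They are Klrd1, Klrk1, Klrc1, Klrc2, Klrc3, Klrg1, Klrb1c and Klre1, taken by symbol from the 54532 genes of the deposited count table, where each symbol had 1 row. The libraries were RNA-seq of mouse primary T cells grown in medium with fetal bovine serum, antibiotics, IL2 and CD3/28 beads, a common T cell stimulus. Cells without PTC (Control, n = 2) were compared with cells given PTC (n = 2), and all 4 libraries carry the time label 12 h. The labels do not expand PTC and give no dose, strain, age, sex, genotype or CD4 and CD8 purity. Whether the libraries stem from separate cultures or animals is not stated, so p-values rest on the spread between these 4 libraries alone, which may be technical.

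The product of Klrd1, CD94, reaches the surface as a disulfide-linked partner of an NKG2 protein. The pair of CD94 with NKG2A, the product of Klrc1, binds the non-classical MHC molecule Qa-1 and inhibits the cell through tyrosine motifs in the NKG2A tail. CD94 with NKG2C or NKG2E, the products of Klrc2 and Klrc3, binds the same ligand and activates through the adaptor DAP12. NKG2D, encoded by Klrk1, does not use CD94: it forms a homodimer, binds stress-induced ligands such as RAE-1 and MULT1, and signals through DAP10. Klrg1 encodes an inhibitory receptor for cadherins that marks late effector T cells. Klrb1c encodes NK1.1, an activating receptor used as a natural killer (NK) cell marker in some mouse strains. Klre1 encodes a receptor described on mouse NK cells that pairs with the KLRI proteins. Activated CD8 T cells are known to carry CD94, NKG2A and NKG2D as well as NK cells.

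All 8 genes lie on chromosome 6 (GRCm38), and their coordinates in the table equalled those of the GENCODE M21 annotation. Klre1, Klrd1, Klrk1, Klrc3, Klrc2 and Klrc1 stand side by side in 0.101 Mb (129577905 to 129678973), with no other gene of the table between them. Klre1 and Klrd1 are on the plus strand and the other 4 on the minus strand. Klrb1c (128778485 to 128789215, minus strand) and Klrg1 (122270596 to 122282882, minus strand) lie further off.

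The genes differ in how far their reads can be told apart. This was gauged with words of 50 bases, a set length not taken from the read length. The percentages of words are therefore not shares of reads. Of the 50-base words of the longest annotated transcript, none was shared with another gene for Klrd1, Klrk1 and Klrg1, 1.02% were for Klre1, 18.1% for Klrb1c, 9.42% for Klrc2, 40.3% for Klrc1 and 41.1% for Klrc3. The coding sequences of Klrc2 and Klrc3 were 94.9% identical, those of Klrc1 and Klrc2 83.1% and those of Klrc1 and Klrc3 84.9%, against 54.04% between Klrc1 and Klrd1. Counts of the 3 Klrc genes therefore depend on how reads that align to several places were assigned, which is not given in the sources used here. Exons of Klrb1c overlap those of Gm44511, and without a stated strand setting their reads cannot be told apart. The longest coding run that Klrc1, Klrc2 and Klrc3 share without a difference is 53 bases, bases 633 to 685 of the Klrc1 coding sequence, and a read within it fits all 3 genes.
Shared run: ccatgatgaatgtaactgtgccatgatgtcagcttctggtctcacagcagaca
A stretch of 60 coding bases shows where Klrc1 reads can be told from the rest. It was chosen as the gap-free stretch of this length with the most differences, so it is not typical of the genes. It lies in their front part, at bases 224 to 283 of Klrc1 and 206 to 265 of Klrc2 and Klrc3. Capitals mark the 24 positions at which the 3 genes are not all alike. Klrc2 and Klrc3 have the same letters throughout this stretch.
Klrc1: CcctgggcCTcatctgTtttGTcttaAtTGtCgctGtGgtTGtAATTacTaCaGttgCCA
Klrc2: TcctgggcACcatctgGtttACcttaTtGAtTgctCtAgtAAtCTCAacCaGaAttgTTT
Klrc3: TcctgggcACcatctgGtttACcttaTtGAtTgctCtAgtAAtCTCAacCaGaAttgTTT

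RefSeq promoter windows on GRCm38.p6 were present for 6 of the 8 genes (8 windows, as Klre1 and Klrc2 each have 2 start sites). The 250 bases before each start were searched on both strands for a RUNX core, TGTGGT or its reverse complement ACCACA, and a T-box core, GGTGTG or CACACC, since RUNX and T-box factors are the best known regulators of killer lymphocyte genes. Matches to the RUNX and T-box cores can overlap, since GGTGTG ends with the letters that begin TGTGGT. A RUNX core was found in 7 of the 8 windows, covering all 6 genes, against 14.05% (4614) of the 32851 promoter windows in the RefSeq table. A T-box core was found in 0 of the 8 windows, against 16.3% of all windows. The windows of Klrc2 and Klrc3 are near copies and the paired windows of 1 gene overlap, so these matches are not independent, and a match is a description of letters, not a site. A match of each gene is given with 10 bases on either side, written in the direction of the gene and with the core in capitals. Starts here are those of RefSeq. For Klrc2, Klrc3, Klrb1c and Klre1 they lie inside the gene coordinates used for the counts. The matches shown lie inside them too for Klrc2, Klrb1c and Klre1, but not for Klrc3. The first base of the core lies 129 bases before the start of Klrk1 (chr6:129623978-129624003, minus), 87 before Klrc1 (chr6:129679045-129679070, minus), 76 before Klrc3 (chr6:129643349-129643374, minus), 76 before the inner start of Klrc2 (chr6:129660617-129660642, minus), 89 before Klrb1c (chr6:128788715-128788740, minus) and 229 before the outer start of Klre1 (chr6:129577974-129577999, plus).
Klrk1: atagctgtgcTGTGGTtgtgtggggg
Klrc1: tgttgttgttACCACAgcactcgtat
Klrc3: caatagaatcACCACAgcatagaaca
Klrc2: caatagaatcACCACAgcatagaaca
Klrb1c: gaaggaaagcTGTGGTcatggtgttt
Klre1: gtgtttaagcTGTGGTtccagagagt
The full 250 bases are given for Klrk1 (chr6:129623865-129624114, minus strand) and Klrc1 (chr6:129678974-129679223, minus strand), the best expressed genes with an entry.
Klrk1: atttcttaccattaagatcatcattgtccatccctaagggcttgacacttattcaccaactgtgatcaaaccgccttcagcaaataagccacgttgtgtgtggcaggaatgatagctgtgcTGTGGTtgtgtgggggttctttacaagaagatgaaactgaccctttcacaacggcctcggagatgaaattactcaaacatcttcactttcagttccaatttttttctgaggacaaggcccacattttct
Klrc1: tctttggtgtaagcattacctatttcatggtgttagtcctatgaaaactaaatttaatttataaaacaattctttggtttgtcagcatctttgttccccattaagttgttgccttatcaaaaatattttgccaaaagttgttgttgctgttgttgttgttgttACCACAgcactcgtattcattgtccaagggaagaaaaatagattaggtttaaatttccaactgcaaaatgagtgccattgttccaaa

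Library totals ran from 15458818 to 16639911 counts, and 3 counts, the limit that a count of 0 allows, corresponded to between 0.184 and 0.195 CPM (the usual depth-scaled count unit, with library sizes adjusted by trimmed mean of M values, TMM), a limit that covers counting error only. All 11 T cell markers were present in each library, with sums of 4389 and 4237 CPM in Control and 4609 and 4722 CPM in PTC libraries. None was called by edgeR (3 at an unadjusted p under 0.05). All 11 had a positive log2 fold change, against 49.3% of all genes tested, with a median of 0.12. The 2 CD8 markers, Cd8a and Cd8b1, summed to 1643 and 1624 CPM in Control and 1838 and 1883 CPM in PTC libraries, with 0 called by edgeR (2 at an unadjusted p under 0.05). The 3 CD4 markers summed to 276 and 276 CPM in Control and 257 and 259 CPM in PTC libraries, and 1 of them, Zbtb7b, was lower (-0.36, edgeR adjusted p = 0.0248), while Cd4 itself had a log2 fold change of 0.21 (edgeR adjusted p = 0.218). Of 4 gamma-delta and NKT cell markers with a row, 2 were tested and 0 called by edgeR (0 at an unadjusted p under 0.05), with sums between 16.0 and 18.4 CPM. Of 14 NK cell markers, Klrb1c and Klre1 among them, 10 were tested and 1 (Eomes) was higher, and the sum was 167 and 162 CPM in Control and 206 and 192 CPM in PTC libraries. The NK markers Ncr1 (5 to 8 counts a library), Klra8 (0 to 1) and Klra9 (0 to 5) were near 0. The highest levels of the 14 over the libraries were those of Eomes (41.5 to 69.3 CPM), Fcer1g (42.9 to 51.0), Gzma (29.3 to 37.3) and Tyrobp (29.5 to 35.8). Of 8 B cell markers 1 (Igkc) was higher, and the sum was 530.1 and 525 CPM in Control and 557 and 567 CPM in PTC libraries. Of 11 myeloid markers 2 were higher (Lyz2 0.53 and S100a8 0.69 on the log2 scale) and 3 lower (Elane -2.36, Mpo -1.70 and Cd14 -0.80), with a median of -0.12, and the sum was 1042 and 1053 CPM in Control and 1475 and 1298 CPM in PTC libraries. These cells' part in the results was not tested. In the quasi-likelihood test of edgeR, adjusted after Benjamini and Hochberg, 188 of 13884 genes tested passed an adjusted p of 0.05, 82 higher and 106 lower with PTC. With library totals alone as the scaling, the share of called genes that were higher was 25.7% in place of 43.6%.

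Klrd1 had the highest level of the 8 and was the only one whose difference passed the test. It fell with PTC to 72.7% of its Control level, while its NKG2A partner gene Klrc1 stood at 105% and the NKG2D gene Klrk1 at 78.4% without passing the test. Of the 8 genes, 6 had enough counts to test. Of these, 1 was called, against 1.35% of all genes tested, and it was lower, against 0.763% of all genes tested. An unadjusted p under 0.05 was found for 2 (Klrd1 and Klrk1), both lower, against 6.89% of all genes tested. Klrd1 was also called by DESeq2 (3.67% of the genes it gave an adjusted p, Klrd1 alone among the 8) and by limma-voom (1.41% of all genes tested). The median log2 fold change of the 6 was -0.02 and that of all genes tested -0.003, with 3 of the 6 above 0 and 3 below. By the groups of 2 libraries, 2 of the 6 (Klrd1 and Klrk1) were lower in each PTC than in each Control library, against 22.2% of all genes tested, and 1 (Klrg1) was higher in each, against 21.3%.

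**Figure D1:**
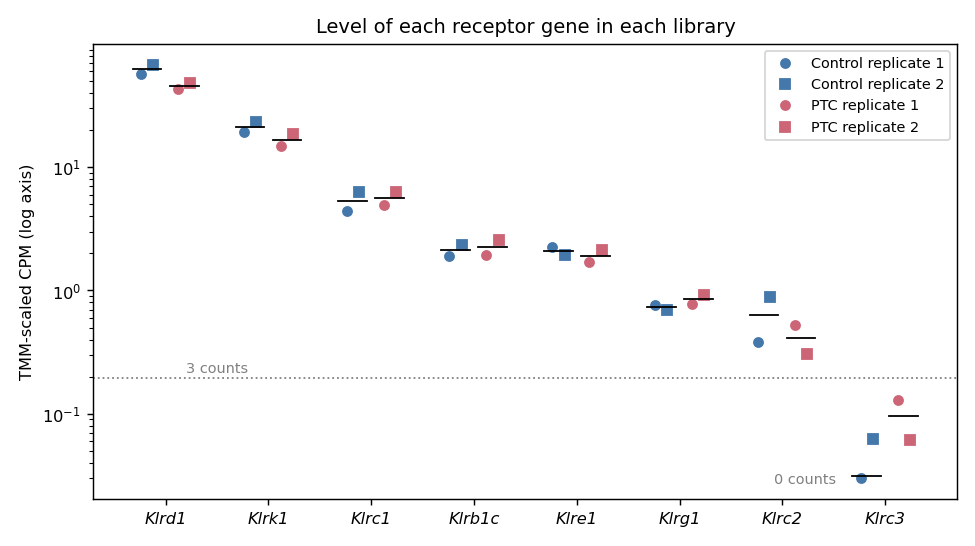
Level of the 8 receptor genes in each library in TMM-scaled CPM on a log axis, with points for libraries and bars for group means (n = 2). The dotted line marks 3 counts, and the single count of 0 (Klrc3, Control replicate 1) is drawn at the foot of the plot, where its place is not to scale; PTC points lie below Control points for Klrd1 and Klrk1, above them for Klrg1, and in overlapping ranges for the other 5 genes.

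Per kilobase of gene length as the table gives it, Klrd1 stood at 48.8 ± 5.84 CPM in Control cells (SD, n = 2), followed by Klrk1 at 2.97 ± 0.396 and Klrc1 at 2.69 ± 0.669 CPM per kilobase. Klrb1c followed at 0.716 ± 0.0976, Klre1 at 0.599 ± 0.0582 and Klrg1 at 0.516 ± 0.0376 CPM per kilobase, and Klrc2 (0.109 ± 0.0604) and Klrc3 (0.0427 ± 0.0604) were lowest. In this order Klrk1 and Klrc1, Klrb1c and Klre1, Klre1 and Klrg1, and Klrc2 and Klrc3 lay closer together than the sum of their SDs, and the other neighbours did not. The order depends on the length used. The table's length exceeds the longest coding transcript for Klrk1 (7183 against 3197 bases) and for Klrc2 (5812 against 2811 bases), among others. Per kilobase of the longest coding transcript, Klrk1 stood at 6.66 ± 0.890 CPM, clear of Klrc1 at 2.69 ± 0.669, and Klre1 at 1.62 ± 0.157 passed Klrb1c at 0.809 ± 0.110. On either length Klrd1 was far above the rest. Per kilobase of the table's length, Klrd1 exceeded Klrc1, Klrc2 and Klrc3 together 19.5-fold and 15.5-fold in Control replicates 1 and 2. In PTC replicates 1 and 2 the excess was 12.2-fold and 11.2-fold. These values depend on how reads shared among Klrc1, Klrc2 and Klrc3 were assigned.

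Klrd1 (ENSMUSG00000030165, chromosome 6, 129591782 to 129598775, plus strand) measured 57.2 and 67.8 CPM in Control replicates 1 and 2 and 43.1 and 47.9 CPM in PTC replicates 1 and 2, from 662 to 1079 counts a library. Both PTC libraries were below both Control libraries, but the 2 Control libraries were further apart from each other than Control replicate 1 was from PTC replicate 2. Means were 62.5 ± 7.48 CPM (Control) and 45.5 ± 3.39 CPM (PTC, SD, n = 2 each). The log2 fold change was -0.46 ± 0.10 (SE) with edgeR adjusted p = 0.0254. The 95% interval of the PTC level ran from 62.8% to 84.2% of Control. Over 12 other settings the log2 fold change stayed between -0.57 and -0.33 with adjusted p from 0.000647 to 0.318. The call held in 9, but it was lost without Control replicate 2 (-0.33, edgeR adjusted p = 0.115), without PTC replicate 1 (-0.38, edgeR adjusted p = 0.318) and by DESeq2 without independent filtering (-0.46, adjusted p = 0.0622). In bulk RNA, fewer Klrd1-bearing cells and less Klrd1 RNA per cell cannot be told apart.

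Of the CD94 partners, Klrc1 (ENSMUSG00000030167, 129666015 to 129678973, minus strand), the inhibitory NKG2A gene, measured 4.41 and 6.29 CPM in the Control and 4.94 and 6.32 CPM in the PTC libraries. The groups overlapped almost fully (log2 fold change 0.08 ± 0.23 SE, edgeR adjusted p = 0.929). The 95% interval ran from 75.6% to 147% of Control, so a change of the size seen for Klrd1 lies just outside it and a rise of up to 1.47-fold inside it. Klrc2 (ENSMUSG00000052736, 129647496 to 129660689, minus strand), the activating NKG2C gene, had 6 and 14 counts in the Control and 8 and 5 counts in the PTC libraries, too few to pass the filter. Its scaled PTC to Control ratio was 0.648, with a 95% counting interval from 0.296 to 1.37. Klrc3 (ENSMUSG00000033027, 129639064 to 129643337, minus strand), the NKG2E gene, had 0 and 1 counts in the Control and 2 and 1 counts in the PTC libraries, a ratio of 2.99 with a counting interval from 0.240 to 157. No difference in either gene was detectable at this depth. Of the counts of the 3 Klrc genes per kilobase, Klrc1 held between 90.3% and 97.1% in every library, a share that depends on how shared reads were assigned.

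Klrk1 (ENSMUSG00000030149, 129610323 to 129623864, minus strand), the NKG2D gene, measured 19.3 and 23.3 CPM in the Control and 14.8 and 18.5 CPM in the PTC libraries. Both PTC libraries lay below both Control libraries, but PTC replicate 2 and Control replicate 1 were only a little apart. Means were 21.3 ± 2.85 CPM (Control) and 16.7 ± 2.61 CPM (PTC, SD, n = 2 each), and the log2 fold change was -0.35 ± 0.14 (SE). Its unadjusted p was 0.0239 and its edgeR adjusted p 0.291, so it did not pass, in a table where 12.9% of genes tested had an unadjusted p under 0.05. The 95% interval of this single gene, not adjusted for the number of genes, ran from 63.7% to 96.5% of Control.

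**Figure D2:**
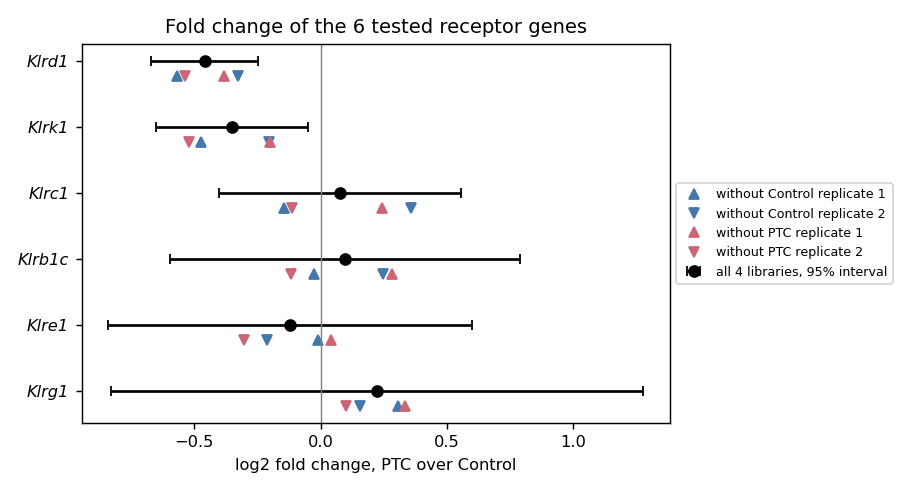
Log2 fold change of PTC over Control for the 6 tested receptor genes, with 95% intervals from the fit to all 4 libraries (black) and the value when each library was left out (triangles). Klrd1 stays between -0.57 and -0.33, Klrk1 between -0.52 and -0.20, and the values of Klrc1, Klrb1c and Klre1 fall on both sides of 0.

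The ratio of 2 genes within a library does not depend on how libraries are scaled. Klrk1 had 33.7 and 34.4 counts per 100 counts of Klrd1 in the Control and 34.4 and 38.7 in the PTC libraries, with exact binomial intervals that overlapped throughout. Klrc1 had 7.70 and 9.27 counts per 100 of Klrd1 in the Control and 11.5 and 13.2 in the PTC libraries. The PTC ratios of Klrc1 were above the Control ratios, and the exact binomial intervals, which cover counting error only, separated Control replicate 1 (5.94 to 9.84) from PTC replicate 2 (10.6 to 16.2) but overlapped in the other pairs of libraries across groups. Ratios to Klrd1 were computed for 5 genes, which share its counts as the denominator. Since Klrd1 is the gene that was lower, a higher ratio restates that difference and is no separate result. All 5 log2 ratios were higher in both PTC than in both Control libraries, by 0.10 for Klrk1, 0.33 for Klre1, 0.54 for Klrc1, 0.54 for Klrb1c and 0.68 for Klrg1 on average. In an exact two-sided permutation test each of the 5 gave p = 0.333 (0.333 after Benjamini-Hochberg adjustment), the smallest that 2 against 2 libraries allow, so none can be called.

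**Figure D3:**
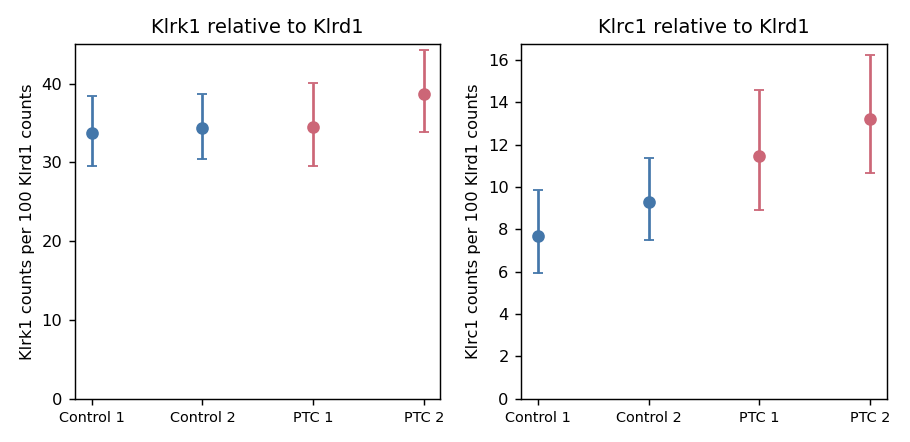
Counts of Klrk1 (left) and Klrc1 (right) per 100 counts of Klrd1 in each library, with exact 95% binomial intervals for counting error. Klrk1 stays between 33.7 and 38.7, while Klrc1 goes from 7.70 and 9.27 in the Control to 11.5 and 13.2 in the PTC libraries.

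The remaining receptors were low. Klrb1c (ENSMUSG00000030325), the NK1.1 gene, measured 1.92 and 2.33 CPM in the Control and 1.95 and 2.58 CPM in the PTC libraries, from 30 to 42 counts a library. Its groups overlapped (log2 fold change 0.10 ± 0.33 SE, edgeR adjusted p = 0.941). Klre1 (ENSMUSG00000050241) measured 2.24 and 1.95 CPM in the Control and 1.69 and 2.15 CPM in the PTC libraries, again overlapping (log2 fold change -0.12 ± 0.34 SE, edgeR adjusted p = 0.925). Klrg1 (ENSMUSG00000030114), the late effector marker, had only 11 to 15 counts a library, 0.767 and 0.691 CPM in the Control and 0.781 and 0.920 CPM in the PTC libraries. Each PTC library was higher than each Control library, but the log2 fold change was 0.22 ± 0.50 (SE), with a 95% interval from 0.563-fold to 2.42-fold (edgeR adjusted p = 0.905). For these 3 genes the intervals would hold a change of the size seen in Klrd1 in either direction.

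Beside the receptors, the other listed lectin-like genes on chromosome 6 were mostly scarce. Of 35 listed genes 34 were matched in the table and 16 were tested. Of these 1 rose and 0 fell, where 1.35% of all genes tested were called, a share that also applies to the lists below. A negative log2 fold change was found for 13, against 50.7% of all genes tested. The median of the 16 was -0.17 against -0.003 for all genes tested. Signs of genes with few counts are uncertain, and a shared shift was not tested. The Ly49 (Klra) genes are a family of similar genes, and how far they share reads was not measured. The 1 called gene was Clec2d, which encodes the ligand of the inhibitory receptor NKR-P1B. It measured 83.4 and 87.3 CPM in the Control and 107 and 128 CPM in the PTC libraries, all PTC above all Control values. The log2 fold change was 0.46 ± 0.09 (SE, edgeR adjusted p = 0.0103), and the call was lost without PTC replicate 2 (0.33, edgeR adjusted p = 0.239). The activation marker Cd69 (-0.10, edgeR adjusted p = 0.790) and Clec2i, a relative of Clec2d (-0.005, edgeR adjusted p = 0.995), gave log2 fold changes near 0, whose signs turned in some settings.

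Of 14 listed ligand genes of these and related lectin-like receptors 11 were in the table and 7 were tested. Clec2d, named above, was the single call, but its receptor, also named above, is not among the receptors described here. No ligand gene of the described receptors was therefore called. Of the 7 tested, Clec2d included, 6 had a positive log2 fold change, against 49.3% of all genes tested, with a median of 0.28. Signs of those with few counts are uncertain, and a shared shift was not tested. H2-T23, which encodes the Qa-1 molecule that CD94 with NKG2A binds, measured 423 and 385 CPM in the Control and 464 and 458 CPM in the PTC libraries. PTC libraries were higher, with a log2 fold change of 0.19 (edgeR adjusted p = 0.287), past the threshold only without Control replicate 1 (0.27, edgeR adjusted p = 0.0294). Ulbp1, which encodes the NKG2D ligand MULT1, had a log2 fold change of 0.28 (edgeR adjusted p = 0.395).

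Among 20 adaptor and proximal signalling genes, all tested, 1 fell and 0 rose, with a median log2 fold change of -0.03. Hcst, the DAP10 gene through which NKG2D signals, had a log2 fold change of -0.01 (edgeR adjusted p = 0.978), and Tyrobp, the DAP12 gene, of 0.17 (edgeR adjusted p = 0.555). Plcg2, a phospholipase gene downstream of DAP12, measured 51.6 and 48.9 CPM in the Control and 38.3 and 37.0 CPM in the PTC libraries, without overlap. It fell by 0.42 on the log2 scale (SE 0.10, edgeR adjusted p = 0.0340). That call was lost without Control replicate 1 (-0.37, edgeR adjusted p = 0.0791), PTC replicate 1 (-0.44, 0.208) or PTC replicate 2 (-0.39, 0.240) and by DESeq2 without independent filtering (adjusted p = 0.134). The kinase and adaptor genes Lck (0.02), Lat (-0.04) and Zap70 (0.01) had log2 fold changes near 0 whose signs turned in some settings, with edgeR adjusted p from 0.891 to 0.978.

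Of 16 transcription factor genes of killer lymphocytes, all tested, Eomes rose and none fell, with a median log2 fold change of 0.00. Eomes, a T-box factor of NK and memory CD8 cells, measured 41.5 and 44.4 CPM in the Control and 69.3 and 59.7 CPM in the PTC libraries, all PTC above all Control values. The log2 fold change was 0.59 ± 0.10 (SE, edgeR adjusted p = 0.00389), and the call was lost without PTC replicate 1 (0.48, edgeR adjusted p = 0.0865). The related factor Tbx21 had a log2 fold change of 0.05 (edgeR adjusted p = 0.827) and Runx3, a RUNX factor of CD8 cells, of -0.21 (edgeR adjusted p = 0.231). Tcf7, a factor of naive and memory T cells, had a log2 fold change of 0.16 (edgeR adjusted p = 0.335), past the threshold without Control replicate 2 (0.21, edgeR adjusted p = 0.0395). Ets1 (0.05) and Stat5b (0.01, with a sign that turned in some settings) lay near 0. Over the 12 alternatives the adjusted p ran from 2.59e-05 to 0.239 for Clec2d, from 0.00854 to 0.240 for Plcg2 and from 1.56e-06 to 0.0865 for Eomes. It ran from 0.0294 to 0.923 for H2-T23 and from 0.0395 to 0.954 for Tcf7.

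**Figure D4:**
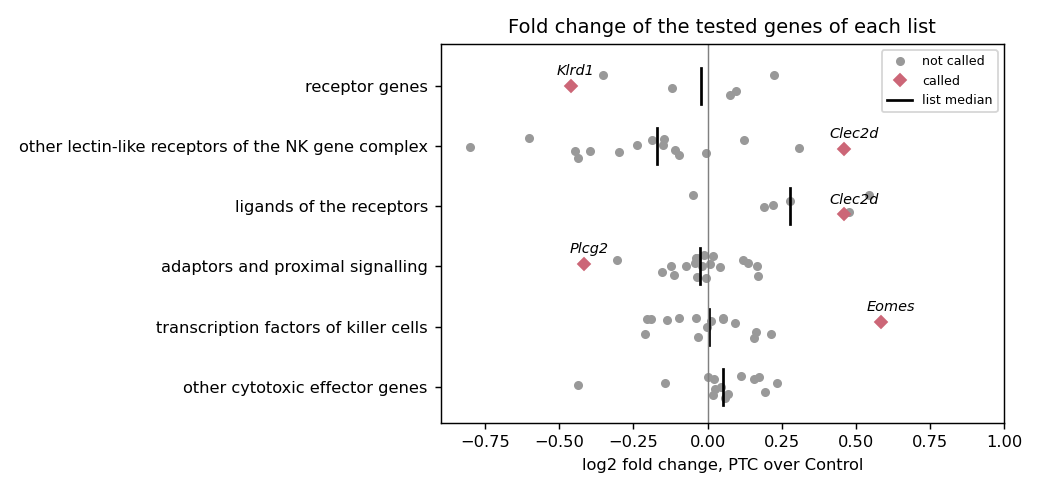
Log2 fold change of PTC over Control for each tested gene of the receptor genes, the 4 lists around them and the other cytotoxic effector genes, with called genes as diamonds and the list median as a bar. Klrd1 and Plcg2 lie at -0.46 and -0.42, Clec2d (in 2 lists) and Eomes at 0.46 and 0.59, and most other genes near 0.

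Between Klrg1 and Klrc1 chromosome 6 holds 305 genes of the table over 7.41 Mb, of which 106 were tested. With Klrd1, 4 of these 106 were called (3.77%, against 1.35% of all genes tested), 3 lower and 1 higher, and their median log2 fold change was 0.00. Klrd1 and Clec2d, 0.411 Mb apart by their coordinates, went in opposite directions. The others were Gapdh, a glycolysis gene known for its pseudogene copies, and Vwf, which encodes von Willebrand factor of endothelial cells and platelets. Gapdh measured 246 and 320.04 CPM in the Control and 25.7 and 28.1 CPM in the PTC libraries, a log2 fold change of -3.40 (edgeR adjusted p = 8.07e-13) that stayed between -3.56 and -3.19 with a library left out. How far Gapdh shares reads with its copies was not measured. Vwf measured 39.3 and 34.8 CPM in the Control and 20.6 and 24.2 CPM in the PTC libraries, a log2 fold change of -0.72 (edgeR adjusted p = 0.00339). Within the 0.101 Mb of adjoining receptor genes, Klrd1 was lower with PTC in all 12 alternatives run, while the log2 fold change of its neighbour Klre1 turned to 0.039 without PTC replicate 1.

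**Figure D5:**
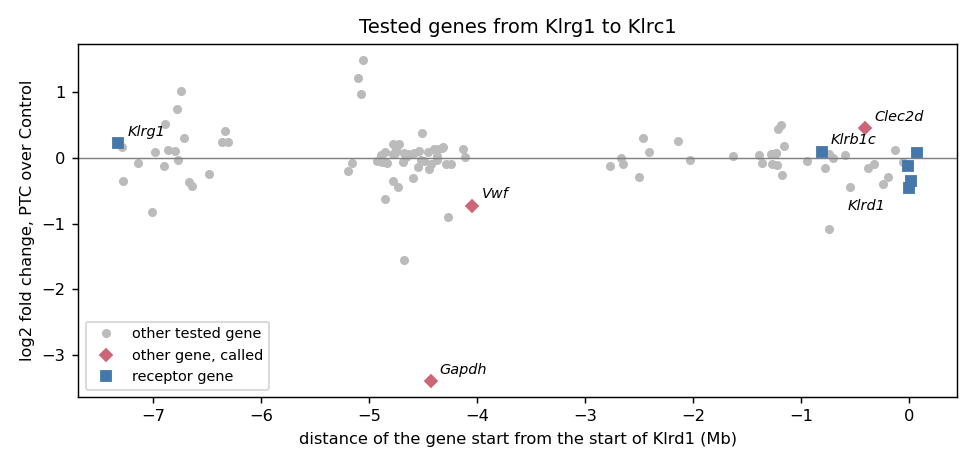
Log2 fold change of the 106 tested genes between Klrg1 and Klrc1 against the distance of their start from the start of Klrd1 in megabases, with receptor genes as squares and other called genes as diamonds. Values of the receptor genes near 0 distance lie between -0.46 and 0.08, and Gapdh stands apart at -3.40.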

How the data were processed

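The authors deposited whole-number read counts per gene, made with CASAVA 1.8, HISAT2 2.0.5 and featureCounts 1.5.0-p3 per the submitters' processing notes. Build, strand setting and the handling of multi-mapping reads: not given in the sources used here. GENCODE M21 (GRCm38) held 54409 of the IDs, 98.3% of them with the same coordinates. The table holds 2 further count columns that match no sample here and were not used. Genes were filtered with filterByExpr (13884 left), scaled by TMM and compared by edgeR 4.0.16 in R 4.3.3 (quasi-likelihood test, group alone, calls at 0.05 after Benjamini-Hochberg adjustment). The test pools the spread between libraries over genes, with a median of 18.2 total degrees of freedom, so p-values and intervals of 1 gene also rest on other genes. Standard errors are the log2 fold change over the root of F. The fit was tested on simulated data. Alternatives used limma 3.58.1 (voom), DESeq2 1.42.0, other scalings, no filter, a replicate block and each library left out, and DESeq2 without independent filtering was added after seeing the data. Members and gene lists were chosen with earlier results of these data known. Beyond the members, the text names the called genes and the 3 genes of largest mean CPM of each list of receptors, ligands, adaptors, factors and effectors, called neighbours and the 5 genes most like Klrd1. The rule did not cover cell type markers, of which the called ones are named. Hcst, Tyrobp, Tbx21, Runx3 and the markers Cd4, Cd8a, Cd8b1, Ncr1, Klra8, Klra9, Fcer1g and Gzma were added after their values were seen. The chi-square over its degrees of freedom between libraries ran from 4.41 to 10.1, so no library was within sampling noise of another.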

Additional observations from a re-analysis of the deposited data

How the results depend on the processing

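Over 12 alternatives the 29 tested genes named by rule kept direction and side of the threshold in 302 cases, kept direction in 12 more for which DESeq2 gave no adjusted p, reversed in 21, lost a call in 10 and gained one in 3. The number of genes called was 188 and rose to 432 without a filter on low counts. It ranged from 76 to 422 with each library left out (76 without PTC replicate 1, 422 and 337 without Control replicates 1 and 2). Receptor genes called ranged from 0 to 1 with a library left out and were 0 by DESeq2 without independent filtering, where 1 had an unadjusted p under 0.05. The 0 by edgeR occurred without Control replicate 2 and without PTC replicate 1, each with 1 at an unadjusted p under 0.05. With a library left out, log2 fold changes ranged from -0.12 to 0.28 for Klrb1c, -0.15 to 0.36 for Klrc1, -0.30 to 0.039 for Klre1, -0.20 to 0.027 for Cd69, -0.13 to 0.11 for Clec2i, -0.019 to 0.066 for Lamp1, -0.086 to 0.028 for Lat, -0.026 to 0.075 for Lck, -0.0056 to 0.11 for Nkg7, -0.030 to 0.067 for Stat5b and -0.083 to 0.12 for Zap70. With library totals alone the signs of Lamp1 (-0.018), Lck (-0.023), Stat5b (-0.029) and Zap70 (-0.030) turned, and with upper-quartile scaling that of Clec2i (0.0099). The cause was not tested. Samples share only a number: deviations of same-numbered libraries correlated at -0.05 over genes, and the replicate block gave 237 genes called and the same 1 receptor gene. Klrc2, Klrc3 and Klrg1 were limited by depth, with at most 15 counts a library.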

Other observations

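Of 14 other cytotoxic effector genes, all tested, 0 passed by edgeR (1 at an unadjusted p under 0.05). A positive log2 fold change was found for 12, against 49.3% of all genes tested, and the median was 0.05. Gzmb, the granzyme B gene, averaged 681 ± 5.52 CPM without and 714 ± 36.05 CPM with PTC (SD, n = 2 each), with a log2 fold change of 0.07 (edgeR adjusted p = 0.758). Nkg7, a granule membrane protein gene, had a log2 fold change of 0.04 and Lamp1, a lysosome membrane gene, of 0.02, both with signs that turned in some settings.

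The genes whose levels over the 4 libraries lay closest to Klrd1 were sought among 8457 genes with a mean of at least 10 CPM, as the root mean square distance of centred log2(CPM + 0.5) values. Genes picked in this way share the direction of Klrd1 by choice, so their fold changes and calls are no separate result. A shared cause was not tested. The 5 closest were Sel1l (0.0197), a gene of endoplasmic reticulum protein disposal, Cd300a (0.0228), an inhibitory leukocyte receptor gene, Pigp (0.0291), Palb2 (0.0468) and Bag3 (0.0472). Among all genes tested, 1.35% were called. Sel1l measured 98.8 and 114 CPM in the Control and 74.2 and 80.0 CPM in the PTC libraries and was the only called gene of the 5 (log2 fold change -0.47, edgeR adjusted p = 0.00856), a call lost without PTC replicate 1 (-0.41, edgeR adjusted p = 0.139). Bag3 (-0.52, edgeR adjusted p = 0.150) passed without Control replicate 1 (-0.68, edgeR adjusted p = 0.0310). Over the alternatives that gave one, the adjusted p ran from 3.63e-05 to 0.139 for Sel1l and from 0.0310 to 0.908 for Bag3. Of the receptor genes, Klrk1 was nearest to Klrd1 at 0.0784, and Klrg1 farthest of those tested at 0.316. The distance takes no account of counting error, which is relatively larger for Klrg1 (11 to 15 counts a library) than for Klrk1 (228 to 371).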
